A study of Lotus japonicus with 12 samples.

Results

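Of 16701 annotated nodule genes of the legume Lotus japonicus, 137 had a higher median in mature than in young wild-type (WT) root nodules, began at a similar median in the cpop1 mutant, and there kept about the same median at both ages. They were chosen from deposited FPKM values (fragments scaled by transcript length and by the library's total). Medians of log2(FPKM + 1) were taken over the 3 libraries of each group. A gene was a member if its WT median was higher by at least 1 at 21 than at 10 days post inoculation (dpi), its cpop1 medians at these ages differed by less than 0.5, and its cpop1 and WT medians at 10 dpi differed by less than 1. The gene also had to carry an identifier on chromosomes 1 to 6 without the suffix _LC, reach 1 FPKM in at least 3 of 12 libraries, and average under 1000 FPKM. The rule allowed up to 150 genes, ranked by the WT difference, and that limit was not reached.

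Root nodules are organs in which legumes house rhizobia, bacteria that reduce atmospheric nitrogen to ammonia for the plant. Nodule maturation brings the differentiation of infected cells, the build-up of leghemoglobin, a heme protein that binds oxygen, and the onset of nitrogen fixation by the oxygen-sensitive nitrogenase. Heme is made in several enzymatic steps, and the series title names CPOP1 as a heme synthesis enzyme needed for the nodule environment and for fixation. The comparison addressed which transcripts accompany maturation in WT nodules and not in nodules of the mutant.

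The 4 groups were cpop1 nodules at 21 dpi, cpop1 nodules at 10 dpi, WT nodules at 21 dpi and WT nodules at 10 dpi, with 3 libraries each. All plants were inoculated with the rhizobium M. loti. The labels write the mutant genotype as cpop1/hemf2 and give neither its allele nor the accession of the WT. Whether the 3 libraries of a group stem from different plants is not stated. None of the identifiers could be paired with a gene name (0 of 40429 RefSeq entries matched), so members are described by identifier and level, their products are not stated, and the level of the mutated gene was not analysed here. In RNA from whole nodules, fewer cells of a type and less RNA per cell cannot be told apart.

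Total FPKM per library ran from 985272 to 1224719, and 18486 to 20623 features reached 1 FPKM. The 3 most abundant features held 29.6% to 31.6% of total FPKM in cpop1 at 21 dpi, 12.2% to 14.6% in cpop1 at 10 dpi, 15.3% to 17.8% in WT at 21 dpi and 9.41% to 11.5% in WT at 10 dpi. FPKM are relative to a library's total, and the part of that share in the results below was not tested. WT 10 dpi replicate 3 stood apart. Over the 16701 genes its log2(FPKM + 1) values departed from the mean of replicates 1 and 2 with an SD of 1.10, while replicates 1 and 2 differed from each other with an SD of 0.256. In 25.3% of these genes it lay at least 1 log2 unit above them and in 6.20% at least 1 below.

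The members are a part of the genes with a higher WT median at 21 dpi. A WT difference of at least 1 was present in 572 of the 16701 genes (3.42%). In 301 of the 572 the young cpop1 median lay within 1 log2 unit of the young WT median. It was at least 1 higher in 164 genes and at least 1 lower in 107. The 301 genes then divided by their cpop1 age difference. In 112 (37.2%) cpop1 was also higher at 21 than at 10 dpi by at least 0.5, in 52 (17.3%) it was lower by at least 0.5, and 137 (45.5%) were the members. A flat cpop1 median was no rarity in the table. Among the 12386 genes whose young medians lay within 1 log2 unit, 7715 (62.3%) differed by less than 0.5 between the cpop1 ages. The mirror pattern had young medians within 1 log2 unit, a WT median lower by at least 1 at 21 dpi and a flat cpop1 median. It was met by 401 of the 1082 genes with such young medians and WT difference (37.1%), against 137 of 301 (45.5%) for the members.

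**Figure D1:**
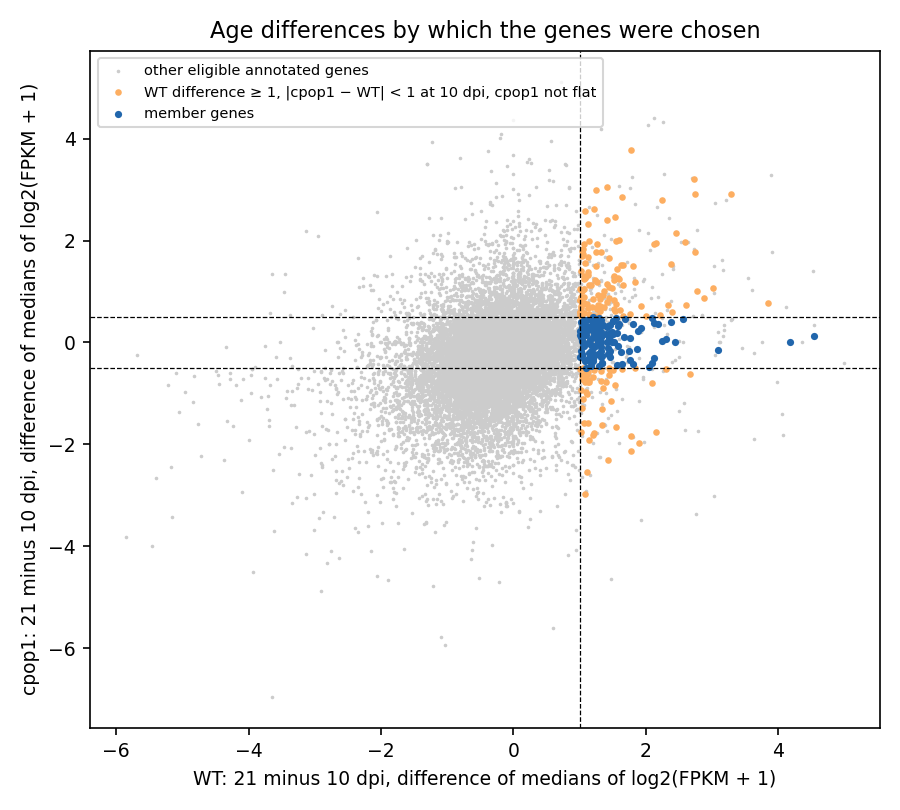
Difference of medians of log2(FPKM + 1) between 21 and 10 dpi in WT (x axis) and in cpop1 (y axis) for 16701 annotated genes, 1 point per gene. Dashed lines mark the limits of the rule on the age differences. The 137 member genes lie in the box right of 1 on the x axis between -0.5 and 0.5 on the y axis. Another 104 genes in that box, with young medians at least 1 apart, are among the grey points. Orange points are the other genes with a WT difference of at least 1 and similar young medians.

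The limits of the rule cut through a continuous range. The members with the smallest WT differences were LotjaGi3g1v0433700 at exactly 1 and LotjaGi1g1v0186300 at 1.004, and the first genes left out were LotjaGi1g1v0258300 at 0.999 and LotjaGi5g1v0026600 at 0.997. LotjaGi2g1v0278700 was left out with a cpop1 age difference of -0.50, as was LotjaGi5g1v0028700 with a young genotype difference of -1. Another 104 genes had the WT difference and a flat cpop1 median but young medians at least 1 apart, and in 62 of them young cpop1 was the higher.

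Most WT differences were modest. Their median over the members was 1.28 on the log2(FPKM + 1) scale, against -0.18 over all 22249 tested features, and this difference was set by the choice of members. Of the 137 genes, 103 had a difference under 1.5, 34 had 1.5 or more and 14 had 2 or more. On the linear scale, the mean FPKM in mature WT nodules was a median of 2.76 times that in young WT nodules over the 136 members with a young WT mean above 0, with quartiles of 2.38 and 4.60. The corresponding ratio in cpop1 had a median of 1.05 and quartiles of 0.828 and 1.32.

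Levels covered a wide range. The mean in mature WT nodules was under 5 FPKM for 32 members, from 5 to under 20 for 38, from 20 to under 100 for 49, and at least 100 for 18. The median member averaged 6.18 FPKM in mature cpop1, 6.58 in young cpop1, 19.4 in mature WT and 7.06 in young WT nodules. Corresponding medians over the 16701 genes were 11.9, 14.5, 10.0 and 14.2 FPKM. Outside mature WT nodules the typical member was therefore below the typical gene, and in mature WT nodules it was above it. The rule used these same values, so this contrast is only a description of the genes chosen.

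Summed over the members, FPKM made up 0.257%, 0.271% and 0.265% of the total in the mature cpop1 libraries and 0.302%, 0.292% and 0.269% in the young cpop1 libraries. The mature WT libraries held 0.747%, 0.716% and 0.746%, and the young WT libraries 0.313%, 0.312% and 0.247%. The mature WT libraries were high and the other 9 lay close together, which follows largely from the choice of members. Without the most abundant member, LotjaGi3g1v0407700, the group means were 0.251% in mature cpop1, 0.266% in young cpop1, 0.663% in mature WT and 0.273% in young WT nodules.

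**Figure D2:**
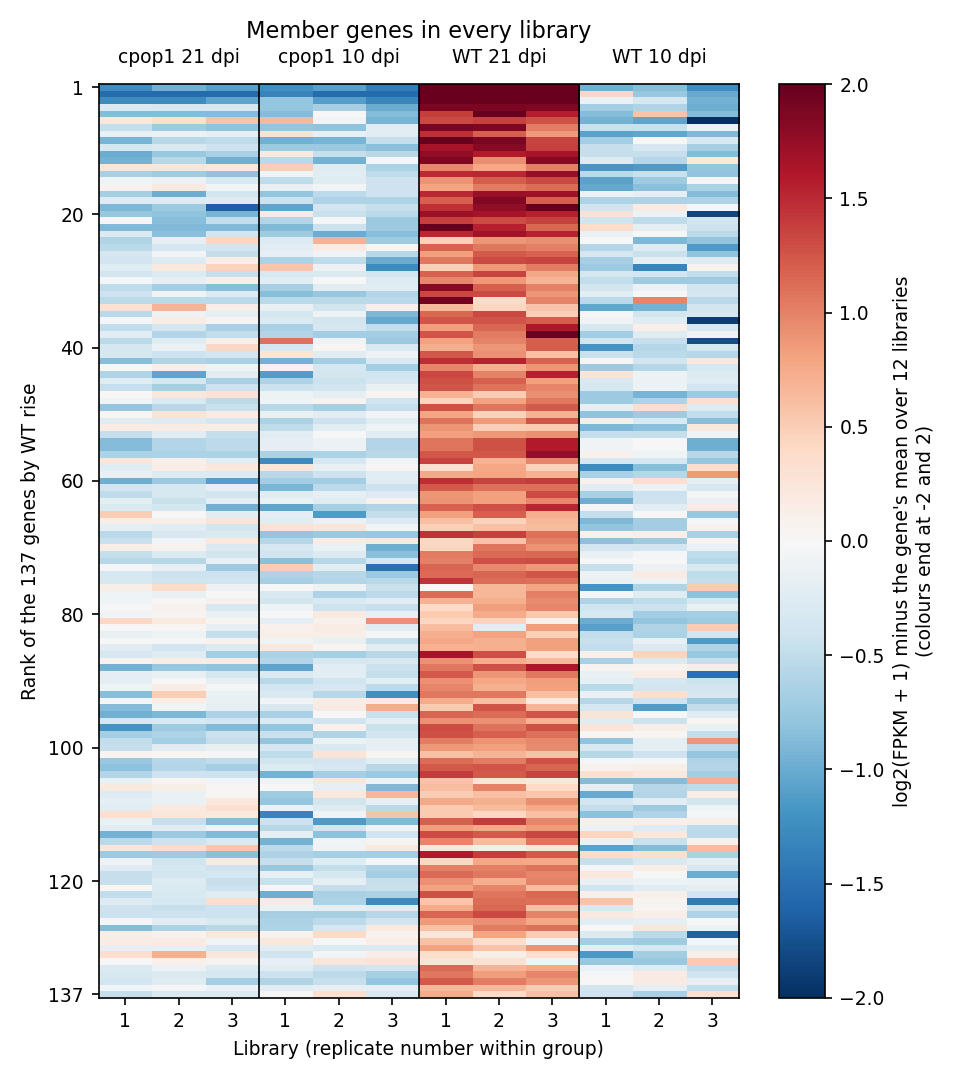
log2(FPKM + 1) of the 137 member genes (rows, ordered by their WT difference) in the 12 libraries (columns, by group and replicate), with each gene's mean over all libraries subtracted. Red is above and blue below that mean. The mature WT block is red in nearly every row, 116 genes had all 3 mature WT libraries above the other 9, and single dark cells in the third young WT column mark that library's departures.

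In 116 of the 137 members the lowest mature WT library was above the highest of the other 9 libraries. The same held for 12.3% of all tested features. The mature WT libraries lay wholly above the young WT ones in 126 members (16.2% of features), and the mature cpop1 libraries wholly below the mature WT ones in 129 (36.2% of features). In young nodules cpop1 lay wholly above WT in 17 members (12.8% of features) and wholly below in 21 (15.7%). The first 3 counts were fixed largely by the choice of members and are given only as a description. The separation of mature WT from the other 9 was at least 1.5-fold on the FPKM scale for 85 members and at least 2-fold for 50. These counts, too, follow largely from the choice of members, and their shares over all tested features were not computed. In 16 members all 9 other libraries stayed under 1 FPKM. These members met the limit of 1 FPKM in at least 3 libraries through the mature WT libraries alone, which therefore all had to reach it.

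The 2 members with the largest WT differences stayed at 2.87 FPKM or less in the 9 libraries outside mature WT nodules. LotjaGi1g1v0769000 had 0.11, 0.34 and 0.23 FPKM in mature cpop1, 0.12, 0.23 and 0 in young cpop1, 29.99, 31.21 and 18.38 in mature WT, and 0.34, 0.45 and 0.11 in young WT nodules. Its mature WT libraries were all far above every other library, which made this also the member with the widest gap. The fitted WT difference was 4.38 ± 0.21 (SE, limma) on the log2(FPKM + 1) scale. LotjaGi2g1v0177400 was listed at 0 in all 3 mature cpop1 libraries and had 0.15, 0 and 0 FPKM in young cpop1, 30.21, 70.67 and 13.81 in mature WT, and 2.87, 0.72 and 0.44 in young WT nodules. Its mature WT libraries were high but spread 38.2 ± 29.3 FPKM (SD, n = 3). The fitted WT difference was 3.92 ± 0.50 (SE). The young WT libraries of this gene were all above the young cpop1 libraries, at low values. Its fitted genotype difference at 10 dpi, cpop1 minus WT, was -1.02 ± 0.50 (SE), with an adjusted p of 0.149 (limma).

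LotjaGi1g1v0404600 had the next widest gap. It stood at 0.13, 0.13 and 0.31 FPKM in mature cpop1, 0.58, 0.26 and 0.09 in young cpop1, 17.11, 17.87 and 16 in mature WT, and 1.47, 1.12 and 0.4 in young WT nodules. Here the mature WT replicates lay close together and the fitted WT difference was 3.21 ± 0.22 (SE). The flattest members outside mature WT nodules were LotjaGi6g1v0261000 and LotjaGi4g1v0363600, with SDs of 0.07 and 0.07 log2 units over the 9 other libraries. Both stood at 0.24 FPKM or less in all of these, so these small SDs belong to values near 0. LotjaGi6g1v0261000 had 1.43, 1.06 and 1.59 FPKM in mature WT nodules, and LotjaGi4g1v0363600 had 2.19, 2.57 and 1.39.

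LotjaGi3g1v0407700 was the most abundant member. It had 170.79, 164.22 and 153.72 FPKM in mature cpop1, 252.43, 231.31 and 189.35 in young cpop1, 756.2, 763.86 and 897.55 in mature WT, and 184.55, 196.94 and 154.6 in young WT nodules. Mature WT libraries were more than 2-fold above all others, and the mature cpop1 libraries were below the young cpop1 ones. The fitted differences between 21 and 10 dpi were -0.45 ± 0.14 in cpop1 and 2.17 ± 0.14 in WT (SE).

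LotjaGi4g1v0336100, named here after its values were seen, had mature WT replicates that nearly coincided. It stood at 27.23, 26.55 and 26.69 FPKM in mature cpop1, 19.17, 20.75 and 16.28 in young cpop1, 125.87, 126.02 and 125.52 in mature WT, and 20.44, 21.79 and 16.53 in young WT nodules. The mature cpop1 libraries were also above all young libraries, by far less than the mature WT libraries. The fitted differences between 21 and 10 dpi were 0.50 ± 0.12 in cpop1 and 2.63 ± 0.12 in WT (SE).

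**Figure D3:**
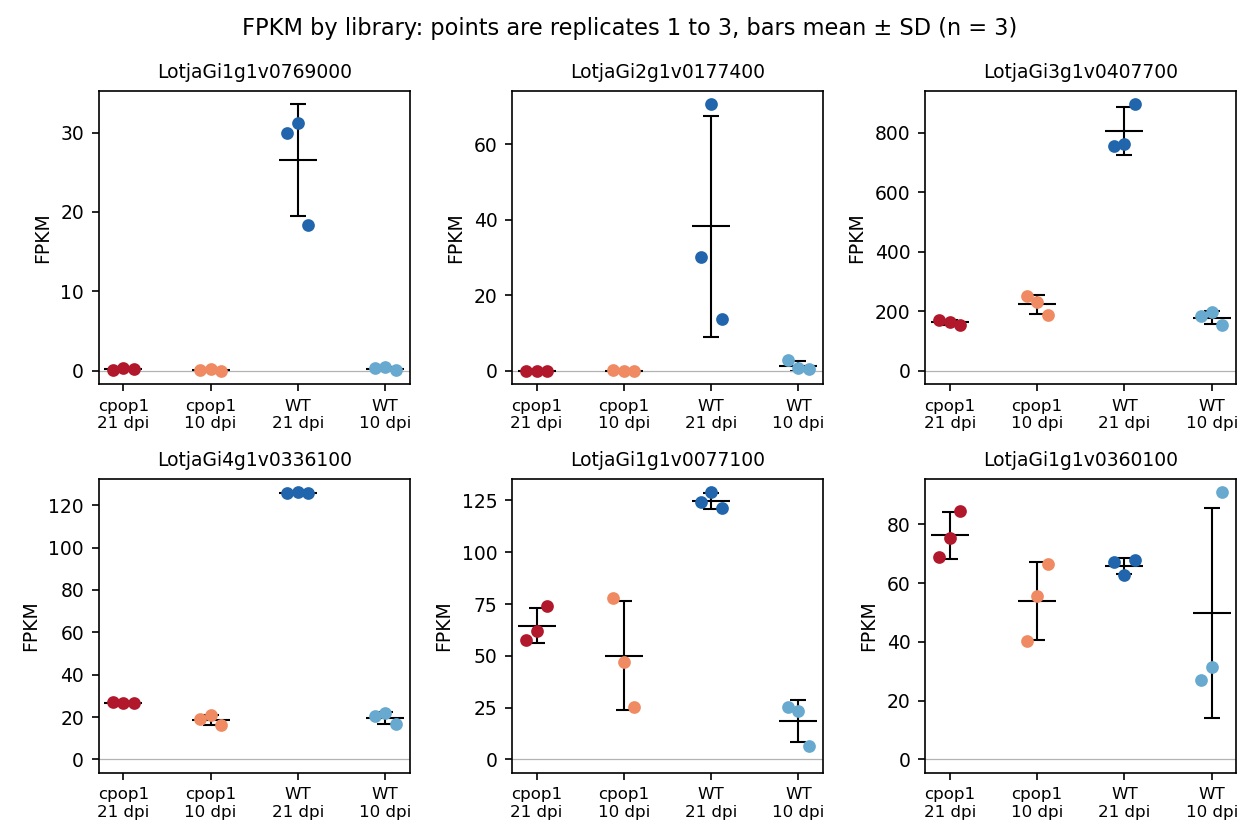
FPKM in every library (points) with the mean and SD of 3 libraries (bars) for 6 members, on linear axes that differ between panels. In the first 4 panels the mature WT libraries stand clear of the other 9. In LotjaGi1g1v0077100 the cpop1 libraries of both ages lie mostly between young and mature WT, and in LotjaGi1g1v0360100 the third young WT library, at 90.91 FPKM, is the highest of all.

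The flat cpop1 medians were not all centred on 0. The cpop1 age difference was above 0 in 81 members, below 0 in 50 and exactly 0 in 6, with a median of 0.10 against -0.20 over all tested features. It was above 0.25 in 41 members and below -0.25 in 26. LotjaGi4g1v0141000 lay at the upper edge, at 34.04, 35.81 and 36.22 FPKM in mature cpop1, 21.16, 25.15 and 25.62 in young cpop1, 61.69, 54.99 and 51.42 in mature WT, and 20.2, 26.19 and 23.29 in young WT nodules. Its mature cpop1 libraries were all above the young libraries of both genotypes, and the fitted differences between 21 and 10 dpi were 0.55 ± 0.13 in cpop1 and 1.24 ± 0.13 in WT (SE). LotjaGi5g1v0260800 lay at the lower edge, at 9.74, 11.35 and 10.19 FPKM in mature cpop1, 17.17, 10.69 and 14.75 in young cpop1, 49.91, 47.58 and 51.33 in mature WT, and 26.77, 22.91 and 13.16 in young WT nodules. Its cpop1 libraries of the 2 ages overlapped.

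Over the members, the mature cpop1 libraries lay wholly above the young ones in 31 genes and wholly below in 13. Over all tested features these shares were 17.5% and 40.8%. A flat median thus did not always mean overlapping libraries. The test across all features called a cpop1 age difference in 4 members, 3 higher and 1 lower (29.5% of all tested features, 8.03% higher and 21.5% lower). These were LotjaGi3g1v0407700, lower at 21 dpi, and LotjaGi4g1v0141000, LotjaGi4g1v0250800 and LotjaGi4g1v0336100, higher at 21 dpi, the third of them named after its values were seen. Without WT 10 dpi replicate 3, which enters this comparison only through the shared estimate of spread, 34 members and 52.0% of all features were called. Without cpop1 21 dpi replicate 2 the test called 2 members and 20.3% of features, and without cpop1 10 dpi replicate 1 it called 7 members and 25.1% of features.

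The position of the flat cpop1 median depended on scaling. With FPKM rescaled without the 20 most abundant features the members' median cpop1 age difference was 0.18, after all libraries were shifted to 1 median it was 0.34, and after rescaling to a common total it was -0.01. Under the shift the median over all tested features moved to 0.08 in cpop1 and 0.11 in WT, against -0.20 and -0.18 as deposited. Relative to these medians the members stood 0.26 above in cpop1 under the shift and 0.31 above as deposited. Under the same shift 46 of the 137 members passed 0.5 in cpop1, and the rule as a whole was met by 279 genes. With FPKM rescaled without the 20 most abundant features, 21 members passed 0.5 in cpop1 and 8 fell under the WT limit. There 108 members still met the rule.

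In 29 members both cpop1 medians were under 1 FPKM. At such levels log2(FPKM + 1) compresses any change, and in 12 of the 29 the mean mature cpop1 FPKM was more than 2 times or less than 0.5 times the mean young cpop1 FPKM. With a pseudocount of 0.1 in place of 1, 91 of the 137 members still met the rule. Flatness of the low members is thus a statement on that scale.

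In mature nodules the genotypes differed as the rule implies, to a degree that varied with where cpop1 began. The difference of medians at 21 dpi, cpop1 minus WT, had a median of -1.32, was -1 or lower in 90 members and -2 or lower in 22. At 10 dpi the difference ran from -0.996 to 0.995 with a median of -0.01. Of the 137 genes, 31 had a young cpop1 median at least 0.5 above that of WT, 25 at least 0.5 below, and 81 lay between. The median differences at 21 dpi in these subsets were -0.61, -1.85 and -1.32. Their median WT differences between the ages were alike, at 1.23, 1.26 and 1.32. The difference at 21 dpi is the one at 10 dpi plus the cpop1 age difference minus the WT age difference. With the cpop1 age difference bounded by the rule, the order of the subsets at 21 dpi is largely arithmetic.

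**Figure D4:**
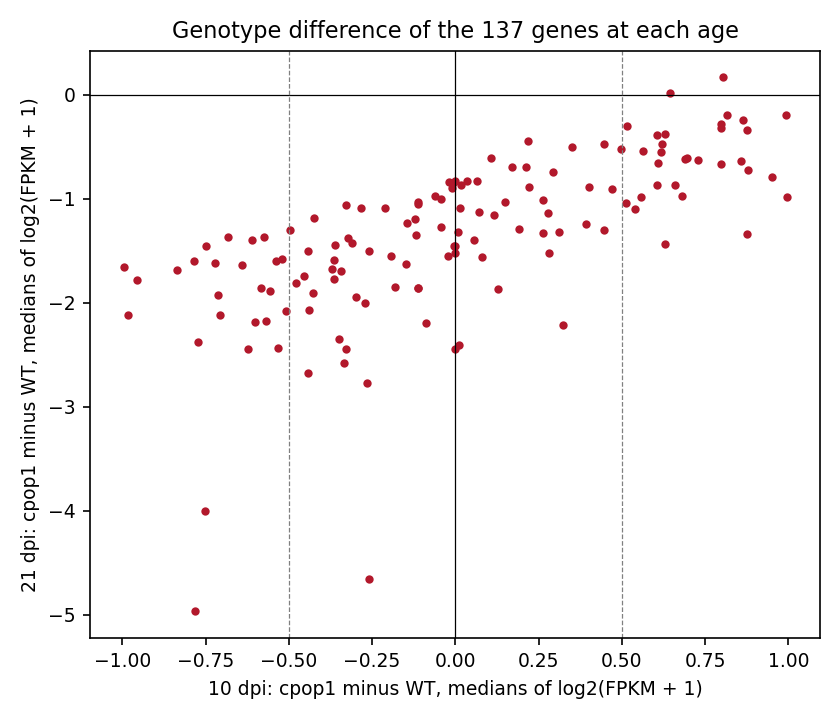
Difference of medians of log2(FPKM + 1), cpop1 minus WT, at 10 dpi (x axis) and at 21 dpi (y axis) for the 137 members. Dashed lines mark -0.5 and 0.5 on the x axis. Nearly all points lie below 0 on the y axis, 2 lie above it, and the points on the right reach closest to 0. Because the cpop1 and WT age differences were bounded by the rule, the 2 axes are tied.

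A member could thus have a mature cpop1 level near that of mature WT. The mature genotype difference was closer to 0 than -0.5 in 14 members and above 0 in 2, LotjaGi1g1v0360100 and LotjaGi1g1v0319400, the second of which was named after its values were seen. For LotjaGi1g1v0360100 and LotjaGi1g1v0319400 the description of a rise seen in WT alone holds only for the age differences of medians. Their cpop1 medians at 10 dpi were already at least 0.5 above those of WT. Fitted differences between 21 and 10 dpi for LotjaGi1g1v0360100 were 0.61 ± 0.37 in WT and 0.51 ± 0.37 in cpop1 (SE). For LotjaGi1g1v0319400 they were 0.84 ± 0.28 in WT and 0.53 ± 0.28 in cpop1. In both genes the mature cpop1 libraries lay wholly above the young cpop1 ones, and the difference between age changes was not called. LotjaGi1g1v0077100 had the highest young offset. It stood at 57.62, 62.18 and 74.03 FPKM in mature cpop1, 77.67, 47.14 and 25.36 in young cpop1, 124.18, 128.88 and 121.43 in mature WT, and 25.1, 23.16 and 6.67 in young WT nodules. The young cpop1 libraries spread 3-fold and the lowest of them was close to WT 10 dpi replicates 1 and 2. LotjaGi1g1v0388600 had the next highest offset at a far lower level, with 1.07, 1.21 and 1.15 FPKM in mature cpop1, 0.84, 1.43 and 1.49 in young cpop1, 1.47, 1.54 and 0.97 in mature WT, and 0.22, 0.22 and 1.96 in young WT nodules. Its mature groups overlapped, and the third young WT library was above every mature library. The fitted WT difference was 0.50 ± 0.31 (SE) with all libraries and 0.92 ± 0.17 without that one.

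At the other end LotjaGi1g1v0418800 and LotjaGi3g1v0089300 were lower in young cpop1. LotjaGi3g1v0089300 had 91.92, 92.99 and 85.56 FPKM in mature cpop1, 99.21, 96 and 94.58 in young cpop1, 458.14, 401.56 and 357.8 in mature WT, and 196.84, 190.53 and 97.65 in young WT nodules. Replicates 1 and 2 of young WT were about 2-fold above all cpop1 libraries, and replicate 3 was at the young cpop1 level. The fitted WT difference was 1.38 ± 0.23 (SE) with all libraries and 1.06 ± 0.10 without replicate 3. LotjaGi1g1v0418800 had 2.3, 1.65 and 0.98 FPKM in mature cpop1, 1.69, 0.66 and 0.96 in young cpop1, 7.34, 8.58 and 6.18 in mature WT, and 2.91, 2.91 and 2.95 in young WT nodules. Here all 3 young WT libraries lay above all 6 cpop1 libraries.

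In 21 members a mature WT library fell within the range of the other 9. The highest of the other 9 was a mature cpop1 library in 2 of these genes, a young cpop1 library in 9 and a young WT library in 10. The smallest gaps belonged to LotjaGi1g1v0079900 and LotjaGi1g1v0732500. LotjaGi1g1v0079900 had 1.94, 1.51 and 1.3 FPKM in mature cpop1, 0.94, 1.33 and 3.16 in young cpop1, 1.98, 2.03 and 1.37 in mature WT, and 0.11, 0.28 and 0.35 in young WT nodules. All young WT libraries of this gene were below the other 9. LotjaGi1g1v0732500 had 12.07, 12.48 and 10.59 FPKM in mature cpop1, 12.91, 13.54 and 10.32 in young cpop1, 19.01, 10.27 and 22.4 in mature WT, and 5.18, 7.63 and 17.63 in young WT nodules. Its WT groups overlapped between the ages, and its mature groups overlapped between the genotypes.

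The third young WT library mattered for a part of the members. It lay at least 1 log2 unit above the mean of replicates 1 and 2 in 12 members (8.76%, against 25.3% of the 16701 genes) and at least 1 below in 9 (6.57%, against 6.20%), and within 0.5 in 79. The SD of its departure was 0.70 over the members, against 1.10 over the 16701 genes. The rule used the young WT medians, which draw on this library, so these figures are not independent of the choice of members. The median over 3 libraries hides a departure of replicate 3. LotjaGi1g1v0360100 had 68.78, 75.33 and 84.66 FPKM in mature cpop1, 40.17, 55.47 and 66.59 in young cpop1, 67.05, 62.82 and 67.85 in mature WT, and 27.17, 31.37 and 90.91 in young WT nodules. Replicate 3 of young WT was the highest of the 12 libraries. With all libraries its fitted WT difference was 0.61 ± 0.37 (SE), and without that replicate it was 1.15 ± 0.17. LotjaGi3g1v0060500 had a like departure, with 10.02, 7.94 and 7.71 FPKM in mature WT nodules, against 3.07, 3.06 and 11.31 FPKM in young WT nodules. Its fitted WT difference was 0.69 ± 0.36 (SE) with all libraries and 1.23 ± 0.15 without replicate 3.

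The opposite departure occurred in LotjaGi4g1v0074600 and LotjaGi4g1v0279600. LotjaGi4g1v0074600 had 8.89, 8.61 and 7.81 FPKM in mature cpop1, 18.16, 11.25 and 10.54 in young cpop1, 54.45, 51.29 and 47.92 in mature WT, and 19.42, 14.38 and 3.66 in young WT nodules. All mature WT libraries were above the rest, and the fitted WT difference was 2.2 ± 0.44 (SE) with all libraries and 1.56 ± 0.20 without WT 10 dpi replicate 3. Applied without that library, the rule was met by 141 genes, of which 119 were among the 137.

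**Figure D5:**
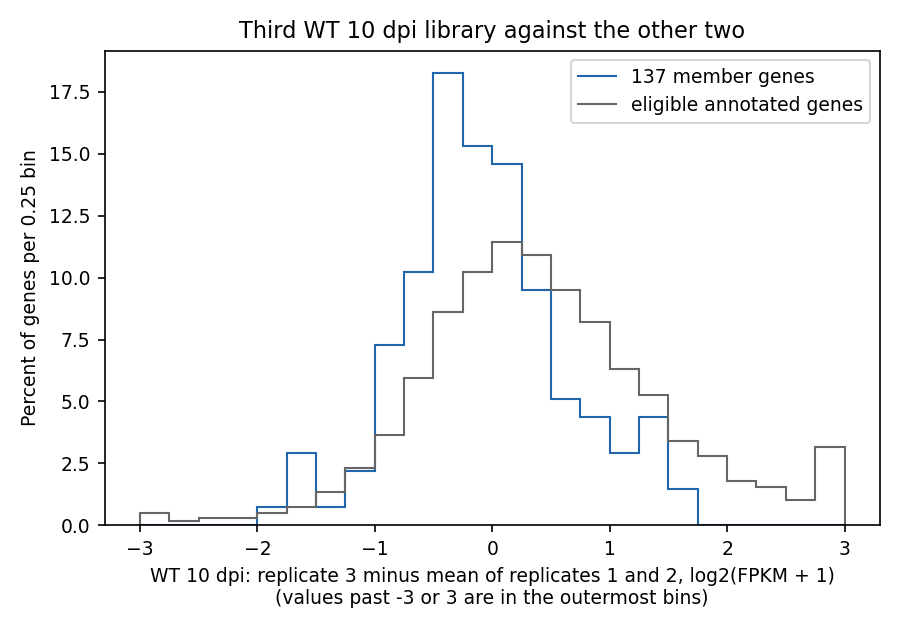
Departure of WT 10 dpi replicate 3 from the mean of replicates 1 and 2 on the log2(FPKM + 1) scale (x axis), as percent of genes per bin (y axis), for the 137 members and the 16701 annotated genes. The members centre near 0, with a median of -0.15, and the 16701 genes lie further right, with a median of 0.34 and a longer right tail. The members were chosen partly by their young WT medians, so the 2 curves are not independent of the rule. Values past -3 or 3 are counted in the outermost bins.

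All 22249 tested features were compared between groups in a linear model (limma), and a difference was called at a Benjamini-Hochberg adjusted p under 0.05. Since the rule used all 4 groups and the comparisons share libraries, no count below is a test of the members. The WT difference between 21 and 10 dpi was called in 127 members, all higher at 21 dpi, where 35.8% of all tested features were called, 11.3% higher and 24.4% lower. At 21 dpi, cpop1 was called lower than WT in 117 members and higher in 0 (57.6% of features called, 28.4% lower and 29.2% higher). At 10 dpi, 28 members were called, 15 higher and 13 lower in cpop1 (22.7% of features called, 11.4% higher and 11.3% lower), a share of members near the background. The difference between the age changes, cpop1 minus WT, was called in 101 members, all negative (20% of features called, 10.2% negative and 9.71% positive). It had a median of -1.23 over the members and of -0.01 over all tested features. Without WT 10 dpi replicate 3 the WT difference was called in 134 members (44.7% of features) and the difference between age changes in 121 (38.9%).

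Single libraries moved the number of calls between young nodules. When WT 10 dpi replicate 3 was left out, 69 members were called, and so were 63.9% of all tested features. Without WT 10 dpi replicate 1 or 2 the counts were 7 and 6, beside 10.1% and 9.36% of features. They were 11, 8 and 14 without cpop1 10 dpi replicate 1, 2 or 3 (15.5%, 10.6% and 13.3% of features), and 16, 18 and 17 without cpop1 21 dpi replicate 1, 2 or 3 (16.9%, 16.9% and 17.2%). Without WT 21 dpi replicate 2 the count was 18, beside 17.7% of features. A limma fit to the 6 libraries of that age alone called 0 members and 3.06% of features, and 29 members had an unadjusted p under 0.05. The members' counts thus moved in the same direction as the calls over all features.

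The calls overlapped within the members. In 98 genes the WT difference, the mature genotype difference and the difference between age changes were all called (4.77% of all tested features, in the same directions). In 70 of the 98 neither the cpop1 age difference nor the young genotype difference was called (2.74% of features), and a call that was missed does not show equal levels. None of the 3 was called in 7 members (30.4% of features). These counts, too, were fixed largely by the choice of members. The mature genotype difference was not called in 20 members (57.6% of all features were called). In 16 of these the young cpop1 median was at least 0.5 above that of WT, which held for 31 of all 137 members. The rule ties the young and mature differences, so this share is only a description. The WT difference was not called in 10 members (35.8% of all features were called). In 7 of these members WT 10 dpi replicate 3 lay at least 1 log2 unit from the mean of the other replicates. Over all members it lay that far above in 12 and that far below in 9.

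Replicates of the members were slightly less close than those of the 16701 genes in 3 groups and closer in young WT nodules. The median SD of log2(FPKM + 1) was 0.13 in mature cpop1, 0.21 in young cpop1, 0.17 in mature WT and 0.28 in young WT nodules, against 0.11, 0.18, 0.13 and 0.38 over the 16701 genes. Libraries of a group spanned 1 log2 unit or more in 2 members in mature cpop1, 13 in young cpop1, 6 in mature WT and 28 in young WT nodules. Over the 16701 genes this held for 0.868%, 6.34%, 2.2% and 35.5% in the same order of groups. The rule used the medians of these same libraries, so the spreads of the members are not independent of their choice.

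The members were spread over all 6 chromosomes that the identifiers name. Chromosome 1 carried 40 (0.903% of its 4430 genes that met the identifier and level limits), chromosome 2 carried 19 (0.809% of 2349), chromosome 3 carried 24 (0.768% of 3123), chromosome 4 carried 24 (0.878% of 2735), chromosome 5 carried 14 (0.672% of 2084) and chromosome 6 carried 16 (0.808% of 1980). Start and end positions were not used here. The running numbers of identifiers put a single pair of members next to each other among tested genes, LotjaGi4g1v0279400 and LotjaGi4g1v0279600.

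Both genes of that pair were abundant, and LotjaGi4g1v0279600 was the member with the second highest mature WT mean. It had 268.46, 303.25 and 284.04 FPKM in mature cpop1, 223.18, 210.76 and 134.09 in young cpop1, 650.2, 651.17 and 632.42 in mature WT, and 258.92, 229.52 and 72.24 in young WT nodules. LotjaGi4g1v0279400 had 101.57, 101.88 and 99.89 FPKM in mature cpop1, 121.4, 72.26 and 55.19 in young cpop1, 168.11, 148.06 and 174.66 in mature WT, and 37.71, 38.85 and 49.75 in young WT nodules. In both the mature WT libraries were highest. They differed in young nodules, where LotjaGi4g1v0279400 was higher in every cpop1 library and LotjaGi4g1v0279600 overlapped between the genotypes, and the third young WT library was low in LotjaGi4g1v0279600 only. The fitted WT differences were 1.94 ± 0.23 for LotjaGi4g1v0279400 and 1.98 ± 0.40 for LotjaGi4g1v0279600 (SE). Without WT 10 dpi replicate 3 that of LotjaGi4g1v0279600 was 1.40 ± 0.18. Whether the pair share reads was not tested.

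Another pair of members, noticed after their values were seen, cannot be counted as 2 measurements. LotjaGi5g1v0203200 and LotjaGi5g1v0204400 were listed with the same FPKM in every library, at 6.2, 7.77 and 8.11 in mature cpop1, 10.66, 11.12 and 7.77 in young cpop1, 26.57, 30.69 and 38.45 in mature WT, and 11.59, 12.04 and 5.69 in young WT nodules. The mature WT libraries of this profile were above the other 9. Each count of members above holds this profile as 2 genes. Among all 22249 tested features, 51 shared their 12 values with another tested feature.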

How the data were processed

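RNA from 12 root nodule samples was sequenced, 3 per genotype and age, as DNBSEQ transcriptomes per the labels' protocols. The authors deposited FPKM with 2 decimals in 1 table, per the file header. Per the submitters' processing notes, HISAT and Bowtie2 2.2.5 were used, for steps these do not name. For the FPKM tool, genome build and annotation, the entry is: not given in the sources used here. Mutant columns carry the name hemf2 and were tied to samples through the labels' descriptions. Read depth is unknown. The most frequent ratio of low values to those of WT 10 dpi replicate 1 was 0.99 to 1.06 across libraries, and counts of reads were not derived from it. Any p-value measures only how far these libraries spread, possibly for technical reasons.

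Of 29531 features, 22249 with at least 1 FPKM in at least 3 libraries were tested. The members were chosen by the stated rule, and members, lists and alternatives were chosen with earlier results of these data known. Values of log2(FPKM + 1) entered limma 3.58.1 in R 4.3.3 with the 4 group means as coefficients and all 12 libraries (eBayes trend, Benjamini-Hochberg adjustment over all tested features). That scale understates changes of low genes. The procedure was tested on simulated data. The simulated noise was normal, with the same SD in all libraries of a gene. It therefore did not cover a library that stands apart, as WT 10 dpi replicate 3 did. Python 3.11.15, NumPy 2.4.6, pandas 2.3.3 and matplotlib 3.10.9 gave descriptions and plots. Named genes are the extremes, at most 2 in each direction, of the WT difference, mature WT mean, young genotype difference, cpop1 age difference, gap to the other 9 libraries, departure of WT 10 dpi replicate 3 and SD over those 9, plus the longest run of adjacent identifiers. Because the limit of 150 was not reached, the genes given just outside are those nearest the other limits. Alternatives were other pseudocounts, filters, scalings, limits, a replicate block, other variance models and each library left out.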

Additional observations from a re-analysis of the deposited data

Results flagged for a closer look

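The age change differed between the genotypes in 101 of the 137 members (limma, interaction term, adjusted p under 0.05), which is what set these results apart for a closer look. All 101 differences, cpop1 minus WT, were negative. The rule chose genes with a WT difference and a flat cpop1 median, so this count follows from the choice of members. Of all tested features 20% were called. When single libraries were left out, between 82 and 121 members were called, beside 12.8% and 38.9% of features. Groups of 3 libraries are too small for the check on single outlying samples.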

How the results depend on the processing

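Membership depended on the processing. The rule was met by 137 genes as deposited, by 279 after a shift to a common median, by 70 and 218 with the cpop1 limit at 0.25 and 1, and by 81 with the limit between young genotypes at 0.5. Leaving out single libraries gave 135 to 304 genes, the 2 highest counts (288 and 304) without WT 10 dpi replicate 1 or 2. Each setting applied the rule's limit of 150 genes anew. Of the 137 members, 91 were kept with a pseudocount of 0.1, 89 after the median shift, 89 with quantile-normalized values, 90 with totals made equal, 91 with group means in place of medians, 70 with the cpop1 limit at 0.25 and 81 with the tighter limit between young genotypes. Without single libraries 71 to 127 were kept, the lowest (71 and 75) without WT 10 dpi replicate 1 or 2. Before the limit of 150, 110 and 112 members met the rule without these libraries, 90 after the median shift, 94 with quantile-normalized values, 107 with group means, and all 137 with the cpop1 limit at 1, of which 102 were kept. The limit of 150 makes the gap between members that met the rule and members kept. The others failed a limit of the rule, and a member could fail several. After the median shift 46 members passed the cpop1 limit upward, 4 passed the young limit and 0 fell under the WT limit. With a pseudocount of 0.1, 20 passed the cpop1 limit upward, 13 downward and 26 passed the young limit. Without WT 10 dpi replicate 1, 23 fell under the WT limit and 4 passed the young limit. The tighter limits can only remove genes.

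Without single libraries, 118 to 134 members were called for the WT age difference (25.5% and 44.7% of all features at these ends). The counts were 106 to 125 for cpop1 against WT at 21 dpi (48.5% and 71.2%). For the difference of age changes they were 82 to 121 (12.8% and 38.9%). These counts all stayed within 1.5 times the reported count, also under every other alternative. For the cpop1 age difference the count of 4 became 7 with a pseudocount of 0.1, 24 after the median shift, 25 with quantile-normalized values, 10 with totals made equal, 11 without the 20 most abundant features, 66 with library weights (67.3% of all features called), 18 in a fit to the cpop1 libraries alone (47.5%) and 2 to 34 without single libraries. For cpop1 against WT at 10 dpi 28 members were called as deposited, beside 22.7% of all features. The count became 103 with library weights (83.5%) and 0 in a fit to that age alone (3.06%). Without single libraries it ran from 6 (9.36%) to 69 (63.9%). A fit to only the groups compared gives no value for the difference of age changes, which uses all 4. The filter at 5 FPKM tested 98 of the members.

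The replicate number as a block gave 129, 5, 118, 23 and 100 members called for WT age, cpop1 age, genotype at 21 dpi, genotype at 10 dpi and the difference of age changes. Over all tested features the shares called were 34.7%, 28.5%, 57.6%, 21.8% and 18.5% in the same order. Deviations of same-numbered libraries correlated between -0.08 and 0.27 across genes, so the numbers were not taken to pair the samples. Under the block the difference of age changes was no longer called for LotjaGi1g1v0079900 (-1.21) and LotjaGi3g1v0433700 (-1.17).

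For the 21 named members, 42 fitted differences (WT age and the difference of age changes) were recomputed in 935 cases: 867 kept direction and side of the threshold, 39 lost the call, 25 gained it and 4 changed sign. All 4 were the difference of age changes of LotjaGi1g1v0360100, reported as -0.10: it was 0.020 without the 20 most abundant features, and 0.06 without cpop1 10 dpi replicate 3, 0.22 without WT 10 dpi replicate 1 and 0.12 without WT 10 dpi replicate 2, in a range of -0.63 to 0.22 over the libraries left out. Read depth is unknown, so no floor can be set for features listed at 0.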

Other observations

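Some features outside the identifier limits met the same value limits, and differences between these shares were not tested. They were 79 of 2453 tested features with the suffix _LC (3.22%), 145 of 2957 with identifiers beginning BGI_novel (4.90%), 1 of 56 organelle identifiers and 0 of 13 identifiers on chromosome 0, against 137 of 16701 annotated genes (0.820%). A WT difference of at least 1 was itself present in 7.09% of the _LC and 10.2% of the BGI_novel features, against 3.42% of the annotated genes. The examples here were chosen after their values were seen. LotjaGi4g1v0381100_LC was listed at 0 in the cpop1 libraries of both ages, had 12.66, 12.51 and 9.25 FPKM in mature WT nodules, and was listed at 0 in all young WT libraries. BGI_novel_G002820 had 0, 0.17 and 0 FPKM in mature cpop1, 0, 0 and 0.08 in young cpop1, 18.16, 13.18 and 20.16 in mature WT, and 1.51, 0.63 and 0.14 in young WT nodules. BGI_novel_G003116, with the larger difference of WT medians, had 0, 23.72 and 0 FPKM in mature cpop1, 0, 0 and 11.71 in young cpop1, 0, 11.52 and 11.62 in mature WT, and 0 in all young WT libraries. Its groups overlapped, so it met the limits on medians without a separation of libraries.

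The tested gene next to LotjaGi2g1v0177400 by identifier, LotjaGi2g1v0177300, had 0.14, 0 and 0 FPKM in mature cpop1, 2.72, 3.65 and 1.52 in young cpop1, 943.65, 1256.2 and 803.17 in mature WT, and 100.16, 74.82 and 41.04 in young WT nodules. It was no member: its young cpop1 median lay 4.35 log2 units below that of WT, and its cpop1 age difference was -1.90. In the same libraries LotjaGi2g1v0177400 held 30.21, 70.67 and 13.81 FPKM in mature WT nodules. Whether reads of this abundant neighbour were counted to LotjaGi2g1v0177400 was not tested.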
